A study of Rattus norvegicus with 6 samples.

Results

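The TGF-beta, activin and BMP signalling genes described here are 48 genes listed by symbol, covering ligands, receptors, Smads and inhibitors. A member was taken from the array data where a probe set carried its symbol and no other, and 45 of the 48 had a value, among 18166 genes in all. Each of the 45 rested on 1 probe set. Tgfbr2, Eng and Skil were not analysed here. The cells were NRK-52E, an established epithelial line from rat kidney, grown in DMEM with 10% fetal calf serum. Control cells filled 3 arrays with total RNA, and another 3 held RNA of cells that overexpressed NICD1, the intracellular domain of Notch1, from the pINDUCER21 vector. The sources used here do not give what the control cells carried, whether and for how long an inducer was added, or whether the cells were a clone or a pool. They also do not say whether replicates came from separate cultures, so each p-value reflects the spread among these arrays alone, and that spread may be technical.

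TGF-beta superfamily ligands are secreted dimers that bring together type I and type II serine/threonine kinase receptors. The type I receptor then phosphorylates receptor-regulated Smads, which join Smad4 and enter the nucleus. TGF-beta and activin act mainly through Smad2 and Smad3, and bone morphogenetic proteins (BMPs) through Smad1, Smad5 and Smad9. Latency proteins, secreted antagonists, pseudoreceptors, inhibitory Smads, ubiquitin ligases and corepressors restrain the signal at successive steps. In the kidney tubule, TGF-beta is known for its part in fibrosis and in epithelial dedifferentiation, and BMP signalling for opposing it.

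Intensities are given as log2 of the deposited RMA value, and a change is NICD1 minus control on that scale. Array medians of linear intensity ranged from 57.5 to 60.1, and the second principal component, with 11.8% of the variance, set control replicate 1 apart from the other 5 arrays. Notch1, the source of the overexpressed domain, was higher in NICD1 cells by 0.66 (SE 0.081; limma adjusted p = 0.00181), and the sources used here do not give where its probes lie relative to that domain. A background level of 5.74, the 95th percentile of 1382 chemosensory receptor genes, served to describe levels. Of 11 tubule epithelium markers, 5 lay above it, of which Krt8 (1.08) and Cdh2 (1.32) rose, Tjp1 (-0.26) fell, and Krt19 (-0.03) and Pax2 (0.07) did not pass. The other 6 lay below it in both groups, namely Krt18, Cdh1, Cdh16, Epcam, Pax8 and Cldn2. Of other cell types, 4 of 8 fibroblast and pericyte, 4 of 5 endothelial and 4 of 6 leukocyte markers lay below it in both groups, Pdgfra, Lum, Cdh5, Vwf, Ptprc and Cd3e among them. The remaining markers of these lists lay above it in at least 1 group. Of these, Col1a1 (0.90) and Cd68 (0.27) rose. Pdgfrb (-0.24) and Thy1 (0.16), the latter above background in NICD1 cells only, did not pass. Col3a1, Tek and Cd14 are given below. The summed linear intensity of the tubule epithelium list was 5870 to 6118 in control and 6902 to 7145 in NICD1 arrays, of the fibroblast list 1087 to 1195 and 1430 to 1499, of the endothelial list 328 to 359 and 269 to 283, and of the leukocyte list 2496 to 2577 and 2730 to 2838. Single genes carried much of these sums, Tjp1 60.0%, Col3a1 46.6%, Tek 54.5% and Cd14 92.5% in that order. Col3a1 rose (0.46), Tek fell (-0.57) and Cd14 (0.13) did not pass. The part of these lists in the results was not tested.

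With all 6 arrays, more than 1 in 2 measured members were called, in both directions. Of 45 members, 14 rose, 10 fell and 21 did not pass the test (limma, p adjusted over all genes by Benjamini-Hochberg, threshold 0.05). That is 53.3% of the members, against 14.7% of all genes, 7.45% called upward and 7.22% downward. Members were chosen with earlier results of these data known, so the difference in shares is a description and not a test of the pathway. Members were less often dim, with 7 of 45 below background in both groups against 6753 of 18166 genes. Among those above it in at least 1 group, 14 of 38 members and 8928 of 11413 genes did not pass. The arrays of the groups did not overlap for 29 members, or 64.4%, against 32.8% of all genes. Changes of at least 1 on the log2 scale were called for 6 members, Tgfb1, Inhba and Acvr1 upward and Smad9, Bmp6 and Tgfbr3 downward, against 1.52% of all genes. The median change was 0.07 over members and 0.0073 over all genes, and the median absolute change 0.25 and 0.10. In RNA from whole cultures, fewer cells expressing a gene and less RNA per cell cannot be told apart.

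Without control replicate 1, 14 members rose and 8 fell. Leaving out NICD1 replicate 1 gave 5 falls, and leaving out NICD1 replicate 2, NICD1 replicate 3 or control replicate 2 gave 6. Fewer of all genes were called in these fits too, against 14.7% with all arrays. The share was 13.7%, 10.6% and 11.1% without control replicates 1, 2 and 3. It was 10.2%, 10.1% and 10.4% without NICD1 replicates 1, 2 and 3. Of the 24 called members, 17 were called whichever 1 array was left out. Calls of the other 7, Bmp4, Bmpr1a, Acvr1b, Smurf2, Pmepa1, Chrd and Fstl3, depended on which arrays were used and are described as such below.

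**Figure D1:**
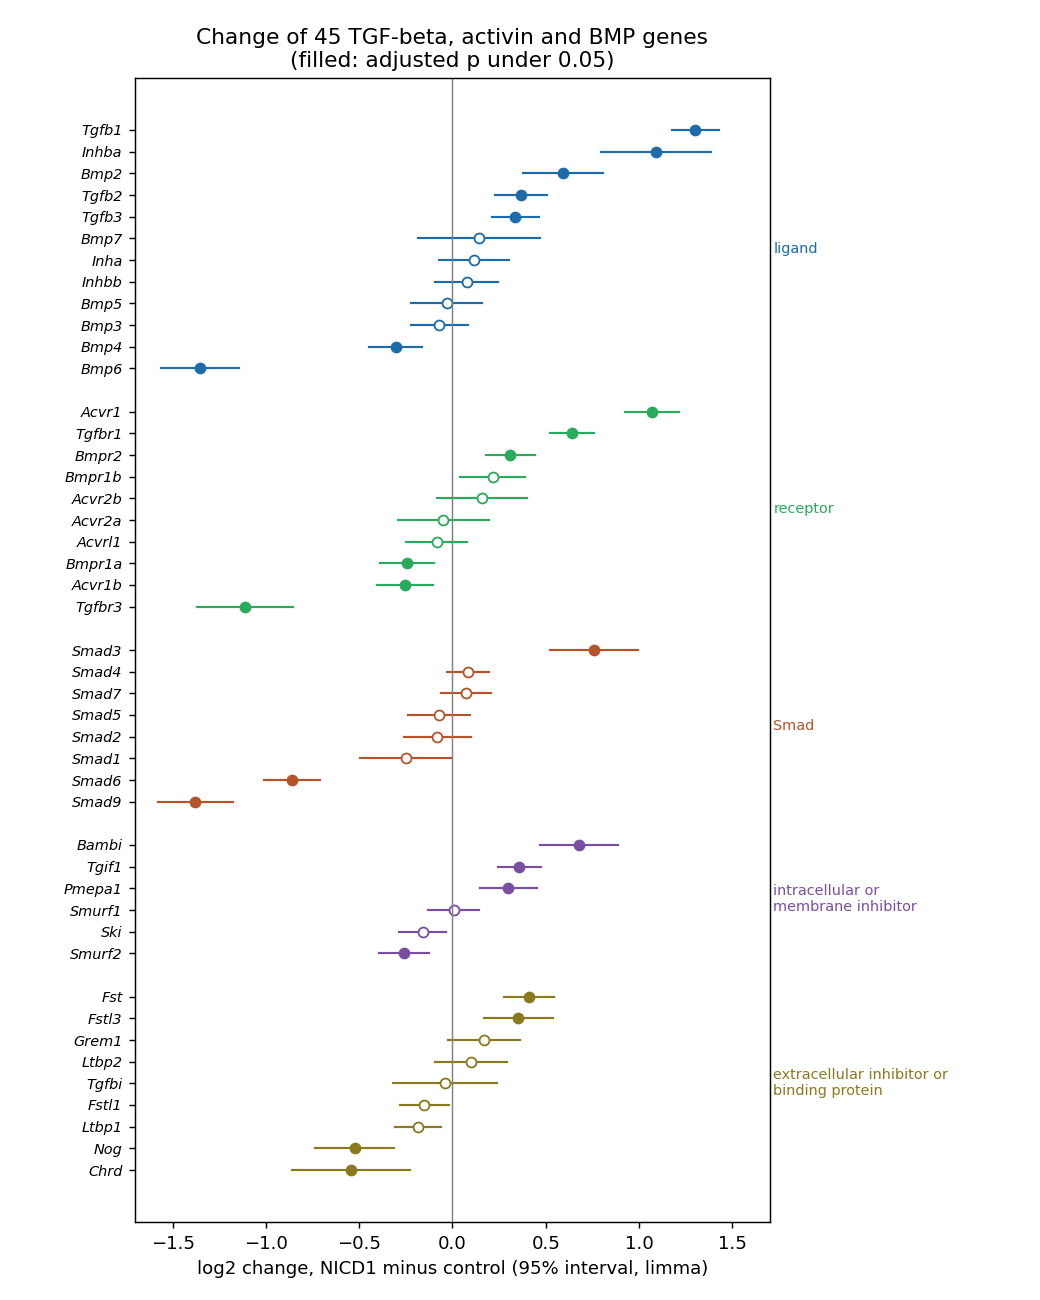
Log2 change of the 45 measured members, NICD1 minus control, with 95% intervals from limma on the horizontal axis and genes grouped by role on the vertical axis. Filled points passed at an adjusted p under 0.05; Tgfb1 (1.30) and Smad9 (-1.38) mark the ends of the range.

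The sequence before the annotated start is shown for the members with the largest rises and falls among ligands, for the Smad that fell furthest, and for the called member whose promoter held the core sequence bound by RBPJ, the DNA-binding partner of NICD1. The 250 bases before the start were taken from RefSeq (GRCr8) for 36 of the 45 measured members. They were searched on both strands for the RBPJ core GTGGGAA, for the Smad element CAGACA and for the GC-rich Smad element GGCGCC, which do not contain one another. Capitals mark matches, and each sequence runs 5′ to 3′ on the gene's own strand. The 250-base windows shown lie at chr1:90324062-90324311 on the plus strand for Tgfb1 and chr17:53804509-53804758 on the minus strand for Inhba. The window of Bmp6 lies at chr17:26675262-26675511 on the minus strand and that of Smad9 at chr2:141106418-141106667 on the plus strand. That of Pmepa1 lies at chr3:182478650-182478899 on the minus strand.
Tgfb1: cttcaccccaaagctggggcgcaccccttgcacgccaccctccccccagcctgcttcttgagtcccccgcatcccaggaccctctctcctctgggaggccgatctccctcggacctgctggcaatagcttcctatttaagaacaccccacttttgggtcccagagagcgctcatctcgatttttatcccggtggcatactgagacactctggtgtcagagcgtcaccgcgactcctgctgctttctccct
Inhba: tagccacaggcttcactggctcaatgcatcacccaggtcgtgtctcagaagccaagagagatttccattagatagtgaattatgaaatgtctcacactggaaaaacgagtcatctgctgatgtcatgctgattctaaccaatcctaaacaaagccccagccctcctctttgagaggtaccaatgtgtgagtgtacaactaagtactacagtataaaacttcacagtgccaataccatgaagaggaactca
Bmp6: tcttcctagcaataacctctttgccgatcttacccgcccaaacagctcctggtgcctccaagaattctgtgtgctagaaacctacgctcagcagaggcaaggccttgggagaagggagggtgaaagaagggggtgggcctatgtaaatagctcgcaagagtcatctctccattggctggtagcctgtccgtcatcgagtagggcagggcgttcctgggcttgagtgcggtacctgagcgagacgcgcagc
Smad9: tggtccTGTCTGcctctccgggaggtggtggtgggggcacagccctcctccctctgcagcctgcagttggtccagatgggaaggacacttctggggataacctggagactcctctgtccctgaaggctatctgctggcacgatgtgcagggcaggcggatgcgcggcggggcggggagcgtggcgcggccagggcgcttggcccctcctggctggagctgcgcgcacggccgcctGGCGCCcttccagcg
Pmepa1: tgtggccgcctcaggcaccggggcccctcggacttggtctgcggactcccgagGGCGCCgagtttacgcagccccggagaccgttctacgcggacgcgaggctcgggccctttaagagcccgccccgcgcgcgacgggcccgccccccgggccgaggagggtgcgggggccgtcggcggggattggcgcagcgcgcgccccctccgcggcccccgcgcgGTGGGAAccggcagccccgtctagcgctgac

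The RBPJ core was found before the start of 3 of these 36 members, against 5.27% of 33469 annotated promoters. In Pmepa1, which rose, it lay 31 to 25 bases before the start, and the other matches were in Inha and Smad4, which did not pass the test. CAGACA was found in 4 of 36, Smad9, Bmp4, Fstl3 and Inha, against 17.2% of all promoters. GGCGCC was found in 13 of 36, against 8.69% of all promoters. Its called holders comprised 3 that rose, Tgfbr1, Bambi and Pmepa1, and 5 that fell, Smad9, Tgfbr3, Acvr1b, Nog and Chrd. Inhbb, Smad2, Smad7, Grem1 and Tgfbi also held it and did not pass. Of all 36 members searched, 19 were called. The median GC content of the 250 bases was 67.4% for the members and 51.2% for all promoters, and its part in these counts was not tested. Tgfb1, Inhba and Bmp6 held none of the 3 searched sequences in this window. Each match describes letters only.

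Among ligand genes, the 3 TGF-beta genes and Inhba rose, and the BMP genes were split. Counts by role, here and below, rest on few genes each, against 7.45% of all genes called upward and 7.22% downward. Of 6 TGF-beta and inhibin or activin subunit genes, 4 rose, 0 fell and 2 did not pass. Of 6 BMP genes, Bmp2 rose, Bmp6 and Bmp4 fell, and Bmp3, Bmp5 and Bmp7 lay below background in both groups.

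Tgfb1 encodes the most widely studied TGF-beta ligand. It measured 9.58, 9.61 and 9.50 on the control arrays and 10.88, 10.86 and 10.85 on the NICD1 arrays. Every NICD1 array lay more than 1 unit above every control array, and the change was 1.30 (SE 0.053), or 2.47-fold (limma adjusted p = 1.56e-05). Tgfb2, a second TGF-beta isoform, measured 10.25, 10.32 and 10.16 in control and 10.64, 10.58 and 10.62 in NICD1 cells. The groups did not overlap, and the change was 0.37 (SE 0.060; limma adjusted p = 0.00650). Tgfb3, the third isoform, measured 11.61, 11.71 and 11.64 in control and 12.01, 12.00 and 11.96 in NICD1 cells, a rise of 0.34 (SE 0.053; limma adjusted p = 0.00564). All 3 isoforms rose, Tgfb1 by 0.93 more than Tgfb2 and by 0.97 more than Tgfb3.

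Inhba encodes the subunit of activin A. Its control arrays read 6.17, 6.37 and 6.53 and its NICD1 arrays 7.28, 7.42 and 7.66. The lowest NICD1 array lay above the highest control array, and the change was 1.09 (SE 0.124), or 2.13-fold (limma adjusted p = 0.00121). Inhbb, the subunit of activin B, read 8.46, 8.22 and 8.33 in control and 8.43, 8.39 and 8.42 in NICD1 cells, with overlapping groups and a value of 0.08 (95% interval -0.09 to 0.25; limma adjusted p = 0.573). Inha, the subunit that turns activins into inhibins, read 6.09, 5.84 and 6.06 and then 6.14, 6.06 and 6.13. It lay near the background in both groups, with a value of 0.12 (95% interval -0.07 to 0.30; limma adjusted p = 0.422).

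Bmp6, a BMP that in the liver also governs iron handling, measured 8.59, 8.35 and 8.37 in control and 7.17, 6.96 and 7.13 in NICD1 cells. Its groups were separated by more than 1 unit, and it fell by 1.35 on the log2 scale (SE 0.089), 2.55-fold (limma adjusted p = 9.71e-05). Bmp4 measured 11.82, 11.83 and 11.76 in control and 11.41, 11.52 and 11.56 in NICD1 cells. It fell by 0.30 (SE 0.060; limma adjusted p = 0.0150), and over the fits that each left out 1 array its adjusted p was 0.0283 to 0.0572, the call being lost without NICD1 replicate 1 or control replicate 2. Bmp2, the ligand closest to Bmp4, moved the other way. Its arrays read 6.14, 6.24 and 6.29 in control and 6.71, 7.01 and 6.74 in NICD1 cells, without overlap, and it rose by 0.59 (SE 0.092; limma adjusted p = 0.00521). Bmp7, a BMP of the developing and adult nephron, stayed below background, at 5.74, 5.42 and 5.18 in control and 5.48, 5.58 and 5.70 in NICD1 cells, with overlapping groups. Bmp5 was also below it, at 4.11, 4.03 and 4.09 and then 4.06, 3.90 and 4.19. Bmp3, an atypical BMP that antagonises others, had a value of -0.07 below background.

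**Figure D2:**
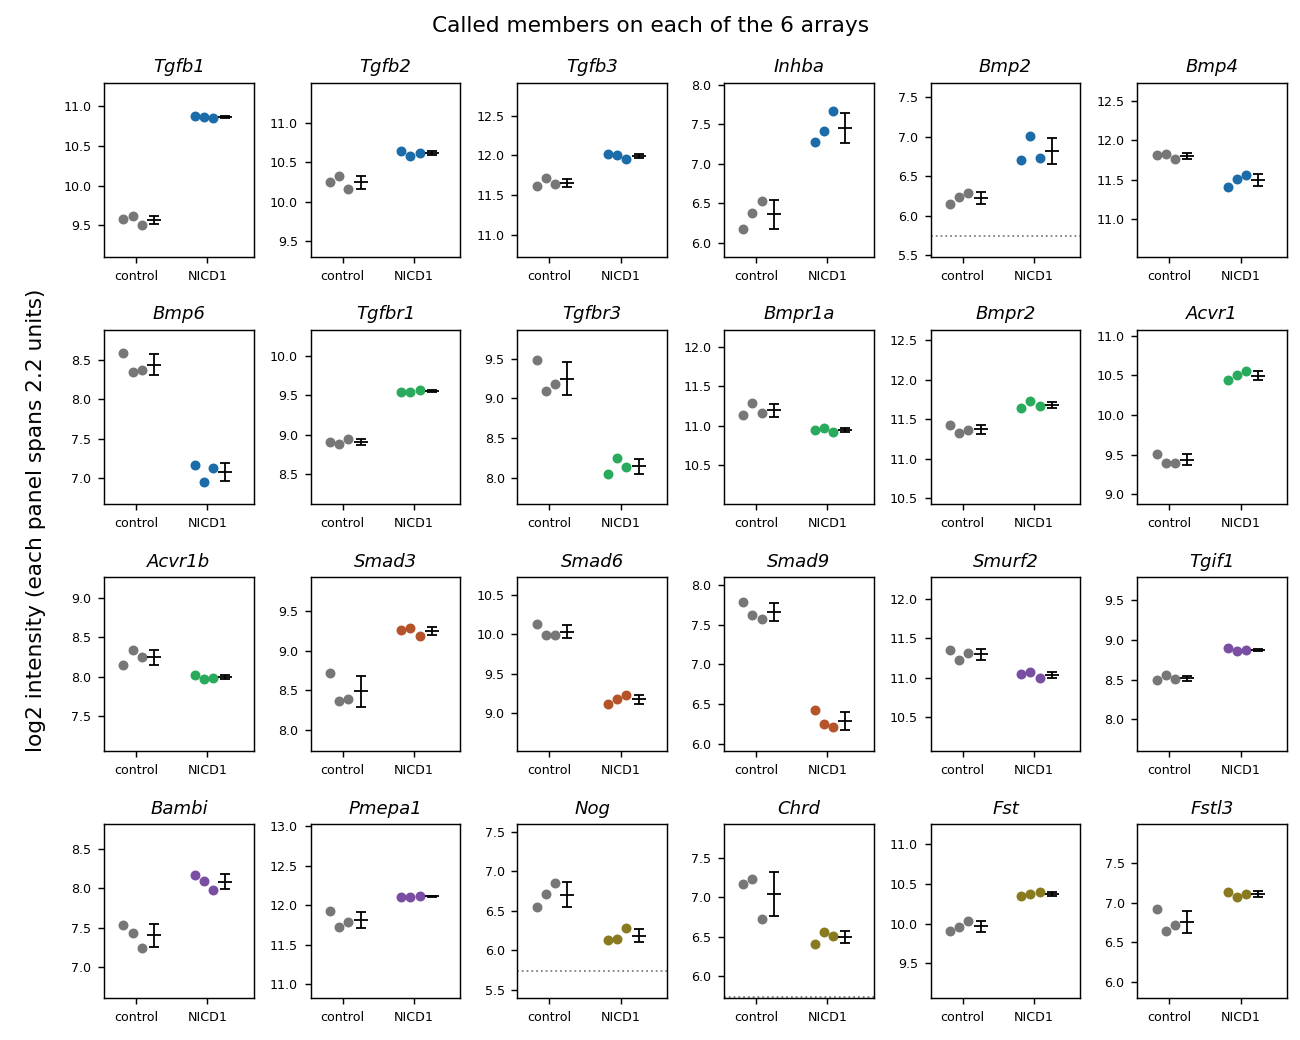
Log2 intensity of the 24 called members on each array, with gray points for the 3 control arrays, coloured points for the 3 NICD1 arrays, and the mean with SD (n = 3) beside each group. Every panel spans 2.2 units, the dotted line is the background of 5.74 where it falls inside a panel, and the groups overlap for none of the 24 genes.

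Receptor genes moved in both directions, 3 up and 3 down among 10 measured. Tgfbr1, the type I TGF-beta receptor ALK5, read 8.91, 8.88 and 8.95 in control and 9.54, 9.55 and 9.57 in NICD1 cells. Its groups were tight and apart, and it rose by 0.64 (SE 0.050), or 1.56-fold (limma adjusted p = 0.000198). Tgfbr3 encodes betaglycan, a co-receptor that presents TGF-beta2 and also binds inhibin and some BMPs. It measured 9.48, 9.09 and 9.19 in control and 8.04, 8.24 and 8.14 in NICD1 cells. The change was -1.11 (SE 0.109), a 2.16-fold fall with every NICD1 array below every control array (limma adjusted p = 0.000602). Within the TGF-beta receptors measured, the signalling receptor and the co-receptor thus moved in opposite directions.

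Acvr1, the type I receptor ALK2 that serves BMPs and can be engaged by activin, measured 9.51, 9.39 and 9.39 in control and 10.44, 10.50 and 10.55 in NICD1 cells. It rose by 1.07 (SE 0.061), or 2.10-fold (limma adjusted p = 5.25e-05), the largest rise among the 10 receptor genes measured. Its relative Acvrl1, ALK1, an endothelial type I receptor, lay below background, at 5.34, 5.39 and 5.48 in control and 5.39, 5.35 and 5.21 in NICD1 cells. Bmpr2, the type II BMP receptor, read 11.43, 11.32 and 11.36 in control and 11.65, 11.73 and 11.67 in NICD1 cells, and rose by 0.31 (SE 0.056; limma adjusted p = 0.01).

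Bmpr1a, the type I BMP receptor ALK3, fell by 0.24 (SE 0.060; limma adjusted p = 0.0372), from 11.13, 11.29 and 11.16 to 10.95, 10.98 and 10.92. Acvr1b, the type I activin receptor ALK4, fell by 0.25 (SE 0.064; limma adjusted p = 0.0393), from 8.15, 8.34 and 8.25 to 8.02, 7.97 and 7.98. Both falls were small and were called in 1 of the 6 fits that left out 1 array, the fit without control replicate 1 (adjusted p 0.0392 to 0.119 for Bmpr1a and 0.0206 to 0.120 for Acvr1b over the 6), and that of Acvr1b was also lost after a second quantile normalisation. Bmpr1b, ALK6, lay below background at 4.77, 4.77 and 4.62 in control and 5.01, 4.83 and 4.97 in NICD1 cells, and did not pass the test (limma adjusted p = 0.107). The type II activin receptor genes Acvr2a (-0.05) and Acvr2b (0.16) did not pass either, with overlapping groups.

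Among the 8 Smad genes, 1 receptor-regulated Smad of each branch and 1 inhibitory Smad changed. Smad3, which carries TGF-beta and activin signals and binds DNA directly, read 8.71, 8.37 and 8.38 in control and 9.26, 9.29 and 9.19 in NICD1 cells. Control replicate 1 was the highest control array and still lay below every NICD1 array, and the gene rose by 0.76 (SE 0.10), or 1.69-fold (limma adjusted p = 0.00247). Its partner Smad2 read 9.93, 9.80 and 10.00 in control and 9.92, 9.83 and 9.74 in NICD1 cells, overlapping, with a value of -0.08 (95% interval -0.26 to 0.10; limma adjusted p = 0.580).

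Smad9, also called Smad8, is a BMP Smad with weak transcriptional activity and is itself a BMP target. It measured 7.80, 7.63 and 7.58 in control and 6.42, 6.24 and 6.21 in NICD1 cells. The groups lay more than 1 unit apart, and it fell by 1.38 on the log2 scale (SE 0.084), 2.60-fold, the largest fall of the 45 members (limma adjusted p = 7.22e-05). The other BMP Smads did not pass the test. Smad1 read 8.98, 8.62 and 8.84 in control and 8.60, 8.43 and 8.66 in NICD1 cells, a value of -0.25 (95% interval -0.50 to -0.0026; limma adjusted p = 0.183). Smad5 read 10.04, 10.15 and 10.18 in control and 10.11, 10.11 and 9.93 in NICD1 cells, a value of -0.07 (limma adjusted p = 0.584).

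Smad6, the inhibitory Smad that acts chiefly on the BMP branch, read 10.12, 9.99 and 9.99 in control and 9.11, 9.18 and 9.23 in NICD1 cells, without overlap. It was 1.81-fold lower (limma adjusted p = 0.000159). Smad7, which inhibits both branches and is induced by TGF-beta, read 9.04, 8.95 and 9.00 in control and 9.11, 9.09 and 9.00 in NICD1 cells, with a value of 0.07 (95% interval -0.06 to 0.21; limma adjusted p = 0.487). Smad4, shared by both branches, read 10.41, 10.42 and 10.43 in control and 10.49, 10.49 and 10.52 in NICD1 cells. Its arrays did not overlap, but the value of 0.08 did not pass the test (limma adjusted p = 0.336).

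**Figure D3:**
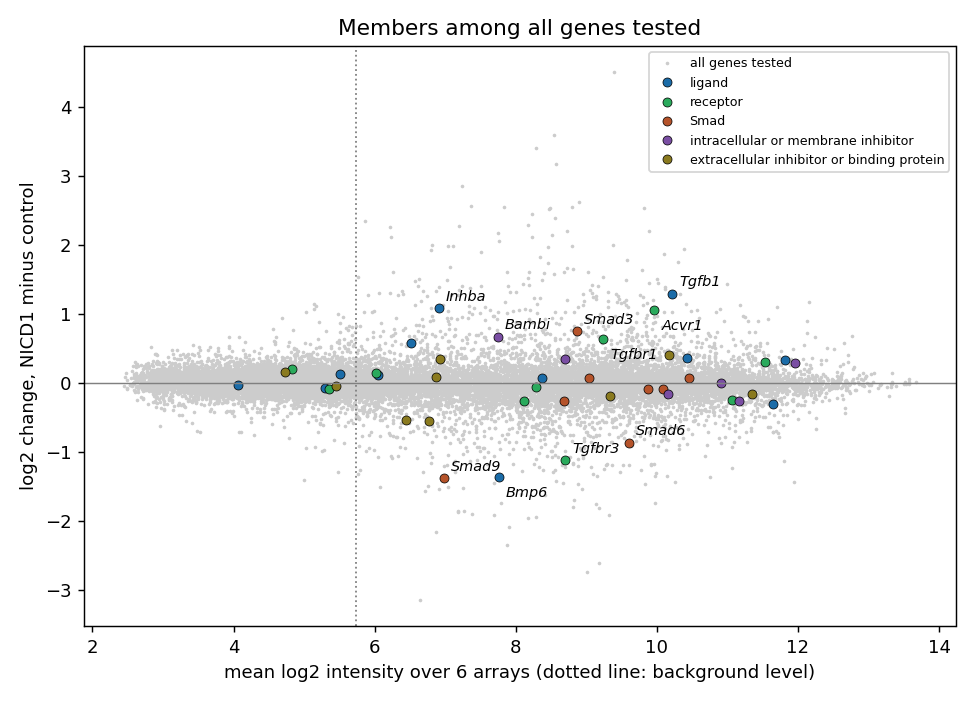
Log2 change (vertical axis, NICD1 minus control) against mean log2 intensity over the 6 arrays (horizontal axis), with gray dots for the 18166 genes tested and coloured points for the 45 members by role. Members called with an absolute change above 0.6 are named, and the 7 members left of the background of 5.74 have changes between -0.08 and 0.22.

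Inhibitors inside the cell or at the membrane included 3 rises and 1 fall among 6 measured. Bambi, a pseudoreceptor that lacks a kinase domain and blocks type I receptors, read 7.54, 7.43 and 7.25 in control and 8.17, 8.10 and 7.98 in NICD1 cells. It rose by 0.68 (SE 0.089), or 1.60-fold, without overlap (limma adjusted p = 0.00242). Tgif1, a corepressor of Smad2 and Smad3, read 8.49, 8.55 and 8.51 in control and 8.90, 8.87 and 8.87 in NICD1 cells, a rise of 0.36 (SE 0.049; limma adjusted p = 0.00301). Pmepa1, a TGF-beta target whose product sequesters receptor-regulated Smads, rose by 0.30 (SE 0.065; limma adjusted p = 0.0222). Its arrays read 11.93, 11.73 and 11.79 in control and 12.11, 12.11 and 12.12 in NICD1 cells, and its call held in 1 of the 6 fits that left out 1 array, the fit without control replicate 1 (adjusted p 0.00869 to 0.0752 over the 6).

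The ubiquitin ligase Smurf2, which targets receptors and Smads, fell by 0.26 (SE 0.057; limma adjusted p = 0.0242), from 11.35, 11.22 and 11.31 to 11.04, 11.07 and 10.99. That call held in 1 of the 6 fits that left out 1 array, the fit without control replicate 2 (adjusted p 0.0336 to 0.0913 over the 6). Smurf1, its close relative, read 10.84, 10.98 and 10.91 and then 10.95, 10.90 and 10.89, a value of 0.0061 (95% interval -0.13 to 0.14; limma adjusted p = 0.966). The corepressor Ski had a value of -0.16 (SE 0.054) and did not pass (limma adjusted p = 0.106), although its arrays did not overlap.

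Of 6 secreted antagonist genes, 2 rose and 2 fell. Noggin and chordin, which hold BMPs away from their receptors, were lower in NICD1 cells. Nog read 6.55, 6.71 and 6.85 in control and 6.13, 6.14 and 6.28 in NICD1 cells, and fell by 0.52 (SE 0.090), 1.44-fold (limma adjusted p = 0.00818). Chrd read 7.17, 7.23 and 6.72 in control, control replicate 3 standing below the others, and 6.41, 6.56 and 6.51 in NICD1 cells. It fell by 0.55 (SE 0.134; limma adjusted p = 0.0360), and this call held in 1 of the 6 fits that left out 1 array, the fit without control replicate 3 (adjusted p 0.00234 to 0.112 over the 6). Grem1, another BMP antagonist, lay below background in both groups with a value of 0.17 (limma adjusted p = 0.249).

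Follistatin and follistatin-like 3, which trap activins, were higher. Fst read 9.90, 9.95 and 10.03 in control and 10.34, 10.38 and 10.40 in NICD1 cells, a rise of 0.41 (SE 0.056), or 1.33-fold (limma adjusted p = 0.00290). Fstl3 read 6.91, 6.64 and 6.71 in control and 7.14, 7.07 and 7.11 in NICD1 cells, a rise of 0.35 (SE 0.079; limma adjusted p = 0.0253), called in 1 of the 6 fits that left out 1 array, the fit without control replicate 1 (adjusted p 0.00607 to 0.0853 over the 6). Fstl1, which shares the follistatin domain, had a value of -0.15 (SE 0.056) and did not pass (limma adjusted p = 0.134). Ltbp1, which stores latent TGF-beta in the matrix, had a value of -0.19 (SE 0.052; limma adjusted p = 0.0578), with arrays that did not overlap. Its relative Ltbp2, which does not bind latent TGF-beta, had a value of 0.10, and the TGF-beta-induced matrix gene Tgfbi lay below background in both groups with a value of -0.04.

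Related members were then set against each other on the same array, which asks whether one moved more than the other and needs no comparison of their levels. The log2 ratio was taken for 21 pairs within families, and each is given relative to the mean of the control arrays. The families were chosen with the single-gene values known. For 14 pairs the control and NICD1 arrays did not overlap, each at the exact two-sided permutation p of 0.1, the smallest that 3 arrays against 3 allow (adjusted over the 21 pairs, 0.15), so no pair could pass the test. The share over pairs drawn from all genes was not computed, so this count has no baseline. As single genes, 64.4% of members and 32.8% of all genes did not overlap. Tgfb1 moved up against Tgfb3 by 0.97 (SE 0.034), with control arrays at 0.06, -0.01 and -0.05 and NICD1 arrays at 0.96, 0.95 and 0.99. The ratio of Smad2 to Smad3 was lower by 0.84 (SE 0.120), with NICD1 arrays at -0.76, -0.88 and -0.87. By itself Smad2 had a value of -0.08, and Smad3 rose by 0.76. Smad6 dropped by 0.93 against Smad7 (SE 0.071), with NICD1 arrays at -1.04, -0.94 and -0.81.

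Bmp2 moved up against Bmp4 by 0.90 (SE 0.110), and Inhba up against Inhbb by 1.01 (SE 0.193). The ratio to Smad9 was higher by 1.13 (SE 0.119) for Smad1 and by 1.30 (SE 0.119) for Smad5. Neither of these genes rose by itself (-0.25 and -0.07), while Smad9 fell by 1.38. The ratio of Tgfb2 to Tgfb3 differed by 0.03 (SE 0.044; exact permutation p = 0.6) and that of Fst to Fstl3 by 0.06 (SE 0.114; exact permutation p = 1), with overlapping groups. In the non-overlapping pairs Bmp5 with Bmp6, Bmp6 with Bmp7, Acvr1 with Acvrl1 and Bmpr1a with Bmpr1b, 1 member lay below background.

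**Figure D4:**
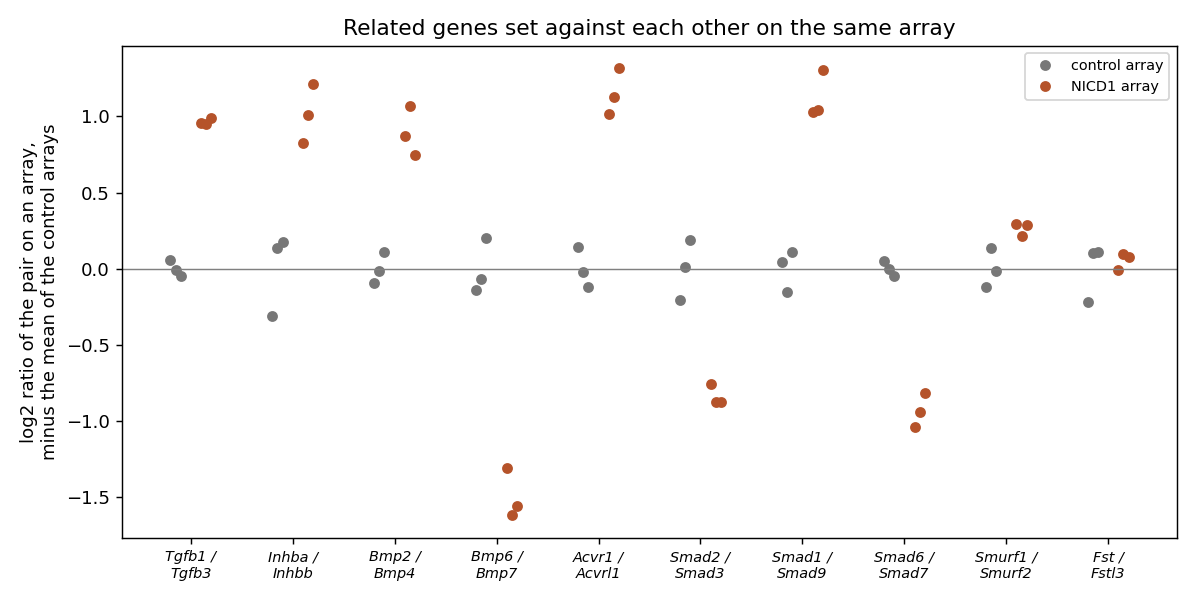
Log2 ratio of 10 pairs of related members on each array, minus the mean of the control arrays (vertical axis), with gray points for the 3 control arrays and orange points for the 3 NICD1 arrays. Groups separate for 9 of the 10 pairs shown, against 14 of all 21 pairs, and Fst / Fstl3 is the pair shown that overlaps.

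The wider pathway was read from a list of 109 other genes, of which 96 were measured, 11 rose, 19 fell and 66 did not pass (31.3% called, against 14.7% of all genes). The list too was chosen with earlier results of these data known, so these shares describe and do not test. Its median change was -0.02. By role, 2 of 18 other ligand genes rose, Inhbe and, below background in both groups, Bmp10, and 3 fell; 3 of 16 latency, activation and matrix genes rose and 3 fell, 0 of 13 extracellular antagonist genes rose and 2 fell, 1 of 22 intracellular regulators rose and 4 fell, and 5 of 22 transcriptional targets rose and 6 fell. Of 5 other receptor or co-receptor genes, 0 rose and 1 fell.

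The 4 largest rises of that list were Snai1 (1.27), Inhbe (1.01), Bmp1 (0.96) and Fn1 (0.90). Inhbe encodes the subunit of activin E, and its arrays read 8.70, 8.71 and 8.67 in control and 9.77, 9.72 and 9.63 in NICD1 cells (SE 0.058; limma adjusted p = 5.19e-05). Bmp1 is a metalloproteinase that cleaves procollagens and chordin, and read 9.46, 9.48 and 9.52 in control and 10.48, 10.43 and 10.43 in NICD1 cells (SE 0.050; limma adjusted p = 3.71e-05). The 4 largest falls were those of Dab2 (-2.34), Atoh8 (-1.94), Itgb8 (-0.95) and Mfap5 (-0.85). Itgb8 forms the integrin that activates latent TGF-beta, and its arrays read 8.59, 8.50 and 8.68 in control and 7.66, 7.60 and 7.67 in NICD1 cells (SE 0.063; limma adjusted p = 0.000102).

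The Id genes, classic direct targets of BMP Smads, were singled out after their values were seen. Id4 read 6.30, 6.03 and 6.26 in control and 5.34, 5.67 and 5.28 in NICD1 cells, a fall of 0.77 (SE 0.121) that ended under the background (limma adjusted p = 0.00563). Id1 fell by 0.24 (SE 0.061; limma adjusted p = 0.0379), a call that was lost in 5 of the 6 fits that left out 1 array and held without control replicate 2. Id2 (-0.21) and Id3 (-0.08) did not pass the test. Over all 22 transcriptional targets measured, the Id genes included, 5 rose, 6 fell and 11 did not pass.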

How the data were processed

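NRK-52E RNA was measured on 6 arrays, and the sample titles gave each array its group and replicate number. The deposited values are RMA intensity values on a linear scale, for which the submitters' processing notes name RMA and Affymetrix Expression Console. RMA includes background correction and quantile normalisation, so the authors' values would not show a shift common to most transcripts. The sources used here give neither software versions nor a genome build. The number of arrays limits the precision.

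Log2 was taken with no pseudocount and no filter. Of 36685 probe sets, 18511 had 1 symbol in the platform annotation, 575 several and 17599 none. Averaging these 18511 by symbol gave 18166 genes, and 18394 of the 18511 had an identifier in the GRCr8 gene table, which changed 0 symbols. Groups were compared over all genes with limma 3.58.1 (lmFit, eBayes, group as the single term, two-sided) in R 4.3.3, with Benjamini-Hochberg adjustment and a threshold of 0.05. The fit was tested on simulated data with known changes and independent normal noise for each gene. That checks the code and not the calls on these arrays. Exact permutation tests used 20 arrangements. Figures were drawn with matplotlib 3.10.9.

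The members and lists were chosen with earlier results of these data known. Per-array values are given for called members and for uncalled members of a family with a called member. Of the other pathway genes, the 4 largest called rises and the 4 largest called falls are named. The background level and the pairs were set after the data were seen. Alternatives changed the scaling (median centring, or quantile normalisation repeated), the genes (without the dimmest 30%), the value per gene (its brightest probe set, or a pseudocount of 16), the fit (replicate number as block, array weights, or a robust prior with an intensity trend), the threshold (0.01) and the arrays (each left out in turn). The values gave no batch, slide or date.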

Additional observations from a re-analysis of the deposited data

How the results depend on the processing

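Of the 15 alternatives, 5 cannot move a member's log2 change (the threshold, the brightest probe set, the intensity trend, the replicate block and the filter on dim genes). Under the other 10, all 24 called members kept their direction, and 16 of them were called under all 15. The count of rises, 14, ranged from 11 at a threshold of 0.01 to 14, and was 12 to 14 when 1 array was left out. The count of falls, 10, was 5 at a threshold of 0.01, 5 with the replicate block and 5 to 8 when 1 array was left out. Of all genes, 14.7% were called in the main fit, 8.11% at the threshold of 0.01 and 10.1% to 13.7% when 1 array was left out. The cause was not tested. With an intensity trend 13 fell, Ski, Fstl1 and Ltbp1 being added, and 19.7% of all genes were called. Ltbp1 was also called with a pseudocount of 16 (17.3% of all genes called) and with quantile normalisation repeated (14.9%). It was called too with the dimmest genes removed, where 25.3% of the genes kept were called and Bmp5, Bmpr1b and Grem1 were left untested. Same-numbered arrays did not deviate together (correlations of -0.0319, -0.0115 and -0.0127), so the numbers were not taken as pairs. In the replicate block fit 13 members rose and 5 fell, with 10.6% of all genes called. The sign changed for 4 that did not pass: leaving out 1 array gave -0.099 to 0.044 for Bmp5, -0.13 to 0.048 for Acvr2a, -0.028 to 0.040 for Smurf1 and -0.16 to 0.079 for Tgfbi, and Smurf1 was -0.013 with array weights; the cause was not tested. Counts over the other pathway genes stayed within 8 to 13 rises and 16 to 20 falls. Low signal limits the 7 members below background, where RMA is known to compress differences. Some called members had 1 group not far above the background of 5.74. These include Bmp2 (6.23) and Inhba (6.36) in control and Nog (6.18) and Smad9 (6.29) in NICD1 cells, as group means.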
